A study of Homo sapiens and Mus musculus with 22 samples.

Results

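The RNA of cGAS knockout (KO) L929 cells was compared with that of cGAS wild-type (WT) L929 cells, both labelled mock. L929 is an established mouse fibroblast line. The comparison takes 2 of the 22 samples of the series, which holds 14 RNA samples, 4 of them from L929. The other L929 libraries are cGAS KO and cGAS WT cells given 10 µM BIX-01294 (BIX), an inhibitor of the histone H3K9 methyltransferases EHMT1 and EHMT2, for 12 h. A treatment note shared by all 4 states that BIX was applied, which contradicts the label mock. The label was followed, and the sources used here do not give what mock cells received. They also do not give how the knockout was made, how many clones it holds, or whether the wild-type cells went through the same selection. Each group is 1 library, so there is no replicate check, no test was made, and every difference below is between single libraries.

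Levels are in FPKM, sequenced fragments per kilobase of transcript, scaled to the mapped fragments of the library. A gene was counted when it had an FPKM of at least 1 in either mock library, which left 11015 of 22727 genes. Differences are log2 ratios of FPKM + 1, KO over WT, so they understate the change of low genes. A gene was called 2-fold higher or lower when this value reached 1 or -1.

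cGAS is an enzyme that binds double-stranded DNA in the cytosol and makes the cyclic dinucleotide cGAMP. cGAMP binds STING on the endoplasmic reticulum, STING recruits the kinase TBK1, and TBK1 phosphorylates the transcription factor IRF3, which switches on interferon beta and, through it, interferon-stimulated genes. Fibroblasts are a common cell type for studying this pathway, and they are also the main makers of collagen-rich extracellular matrix.

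Summed FPKM was 484877 in KO mock and 526249 in WT mock, and the spacing of low FPKM values gives WT mock 0.991 of the reads of KO mock. Read numbers themselves are unknown. Of 20 fibroblast markers, 15 were counted, while Thy1, Dcn, Lum, Fap and Twist1 were listed at 0 in both. Vim, an intermediate filament gene, was at 1780.3 FPKM in KO mock and 1756 in WT mock. The markers were not all level: 5 of the 15 were 2-fold higher in KO mock (33.3%, against 4.7% of all genes) and 0 lower, with a median of 0.38. Col3a1, Fn1, Col1a2 and Col1a1, given below, were among the 5. None of 12 endothelial markers, 1 of 15 epithelial markers and 3 of 19 macrophage and blood markers were counted. The 3 are Cd68, Cd14 and Lyz2, with a summed FPKM of 10.9 in KO mock and 43.0 in WT mock, whereas Ptprc, Adgre1, Tyrobp and Fcer1g were listed at 0 in both. Cd68 carries this sum (5.11 in KO mock, 41.2 in WT mock), while Cd14 (3.23 in KO mock, 0.654 in WT mock) and Lyz2 (2.57 in KO mock, 1.20 in WT mock) were on the other side. RNA of a whole culture does not separate fewer cells of a kind from less RNA per cell.

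Mb21d1, the files' symbol for the mouse cGAS gene, was at 1.19 FPKM in KO mock and 2.82 in WT mock, a log2 difference of -0.80. By FPKM alone the KO mock level was 0.421 of the WT mock level, and the pseudocount of 1 brings the difference under the 2-fold limit. On the log2(FPKM + 1) scale 586 genes (5.32% of those counted) were lower in KO mock by more. With BIX the gene was at 4.41 in the library labelled cGAS KO and 3.47 in the library labelled cGAS WT, so the direction turned. A level summed over a gene cannot show a small frame-shifting deletion, and the knockout is therefore named by its label throughout.

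In all, 863 genes (7.83% of 11015) were 2-fold apart. KO mock was 2-fold higher for 518 (4.7%) and 2-fold lower for 345 (3.13%), and of these 282 and 226 had an FPKM of at least 1 in both libraries. The difference reached 4-fold for 102 genes higher and 52 lower, and 8-fold for 33 and 16. The middle of the distribution was narrow: the median was -0.03, the quartiles were -0.31 and 0.28, and 53.7% of genes were within 1.25-fold. Calls were more frequent at low levels, with 16.8% of the 2439 genes at a mean FPKM under 5 called, against 4.24% of 3583 genes between 20 and 100. The median also drifted with level, to -0.17 among the 871 genes at a mean of 100 or more.

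**Figure D1:**
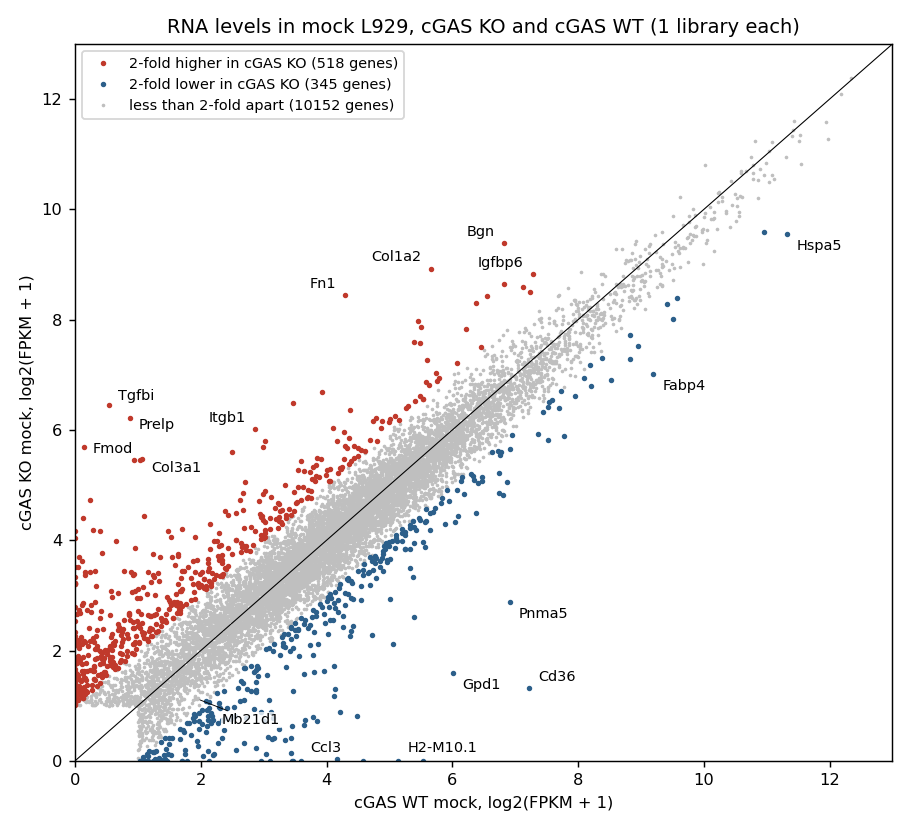
Level of each counted gene in cGAS KO mock (vertical) against cGAS WT mock (horizontal), both as log2(FPKM + 1), 1 library each; the line marks equal levels. The 518 red genes are 2-fold higher in KO mock and the 345 blue genes 2-fold lower; matrix genes such as Fmod, Fn1 and Col1a2 stand far above the line, and Cd36 and Pnma5 far below it.

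The pathway downstream of cGAS was at similar RNA levels in both mock libraries. Tmem173, which encodes STING, was at 13.0 FPKM in KO mock and 13.7 in WT mock. Tbk1 was at 23.9 (KO mock) and 23.7 (WT mock), and Irf3 at 17.9 (KO mock) and 19.9 (WT mock). Of 23 genes written for the pathway, 21 were counted, 0 were 2-fold higher and 1 was 2-fold lower (4.76%, close to the 3.13% of all genes), with a median of -0.22. The exception was Rnaseh2c, a subunit of the RNase H2 enzyme that removes RNA from RNA-DNA hybrids, at 10.3 in KO mock and 38.9 in WT mock. Its partners Rnaseh2a (13.1 in KO mock, 12.7 in WT mock) and Rnaseh2b (22.7 in KO mock, 19.7 in WT mock) were nearly level. Samhd1, which hydrolyses deoxynucleotides, was at 37.8 in KO mock and 23.4 in WT mock, and Pqbp1, an adaptor described for cGAS sensing of retroviral DNA in human cells, at 71.8 (KO mock) and 44.9 (WT mock).

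Interferon-stimulated genes were mostly low in both mock libraries, and those called lay in both directions. Of 64 listed, 34 were under 1 FPKM in both, including Ifit1 (0.0710 in KO mock, 0.179 in WT mock) and Rsad2 (0.0485 in KO mock, 0.0244 in WT mock), which encode antiviral proteins. Of the 30 counted, 4 were 2-fold higher (13.3%, against 4.7% of all genes) and 3 lower (10%, against 3.13%). Their median was 0.32, and 25 had an FPKM of at least 1 in both. Ifitm1, a membrane protein gene that limits virus entry, was at 9.71 in KO mock and 0.177 in WT mock. Apol9a was at 11.5 (KO mock) and 2.83 (WT mock). On the other side, Bst2, which encodes the virus-retaining protein tetherin, was at 20.6 in KO mock and 67.0 in WT mock, and the GTPase gene Iigp1 at 1.14 (KO mock) and 7.52 (WT mock). In the BIX pair the log2 differences were 1.12 for Ifitm1, -1.18 for Bst2 and -2.54 for Iigp1, in the same directions as in mock. Apol9a was nearly level there, at 51.6 in KO BIX and 53.5 in WT BIX, a log2 difference of -0.05. With BIX 5 of the 30 genes were above 0, against 51.3% of all genes.

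Among receptor, signalling and antigen presentation genes around these, single genes were called, at shares near or above those of all genes. In the interferon receptor and STAT list 1 of 15 counted genes was lower (6.67%, against 3.13% of all genes) and 0 higher. The lower gene was Socs3, a feedback inhibitor of cytokine receptors, at 11.9 in KO mock and 26.2 in WT mock. Ifnar2, a chain of the type I interferon receptor, was at 58.4 (KO mock) and 31.1 (WT mock), a log2 difference of 0.89. Of 20 genes of MHC class I presentation, 1 was higher and 1 lower (5% each way, against 4.7% and 3.13% of all genes). The higher was the merged H2-T22 and H2-T9 locus (17.1 in KO mock, 7.1 in WT mock). The lower was the immunoproteasome subunit Psmb10 (5.9 in KO mock, 15.3 in WT mock). Reads of the merged locus cannot be split between its near-identical members.

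Matrix genes were among those with the largest differences. Of 19 counted collagen genes 6 were 2-fold higher in KO mock (31.6%) and 0 lower, and of 42 counted other matrix and remodelling genes 13 were higher (31.0%) and 1 lower. Against the 4.7% of all genes these shares are large, although members with FPKM under 1 in WT mock could be counted only by being higher in KO mock: 18 of the 19 and 32 of the 42 had an FPKM of at least 1 in both. The list medians were 0.22 and 0.68, and 32 of the 42 other matrix genes were above 0.

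Among fibrillar collagens, which form the tensile fibres of connective tissue, Col1a2 was at 486 FPKM in KO mock and 49.4 in WT mock. Its partner chain Col1a1 was at 192 (KO mock) and 40.9 (WT mock), and the log2 differences of the 2 chains were 3.27 and 2.20. Col3a1 was at 43.5 in KO mock and 1.10 in WT mock, a log2 difference of 4.41, and Col5a2 was at 25.6 (KO mock) and 5.17 (WT mock). Of the collagen VI chains, which make beaded microfibrils around cells, Col6a1 was at 316 in KO mock and 82.0 in WT mock and Col6a2 at 249 (KO mock) and 42.6 (WT mock), whereas Col6a3 was at 111 (KO mock) and 93.2 (WT mock). The basement membrane chains Col4a1 (105 in KO mock, 96.6 in WT mock) and Col4a2 (73.5 in KO mock, 71.5 in WT mock) were nearly level, so the collagen genes were not all higher.

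Of the small leucine-rich proteoglycans, which coat and space collagen fibrils, Fmod (fibromodulin) was at 50.6 in KO mock and 0.0986 in WT mock. Prelp was at 73.1 (KO mock) and 0.824 (WT mock), and Bgn (biglycan) at 669 (KO mock) and 112 (WT mock). Dcn and Lum, of the same family, were listed at 0 in both mock libraries. Fn1, which encodes the adhesive glycoprotein fibronectin, was at 348 in KO mock and 18.6 in WT mock, a log2 difference of 4.16. Vcan, a large hyaluronan-binding proteoglycan, was at 16.9 (KO mock) and 0.320 (WT mock), and Tgfbi, a secreted matrix protein named for its induction by TGF-beta, at 86.5 (KO mock) and 0.458 (WT mock). Tgfbi had the highest difference of all counted genes (5.91).

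**Figure D2:**
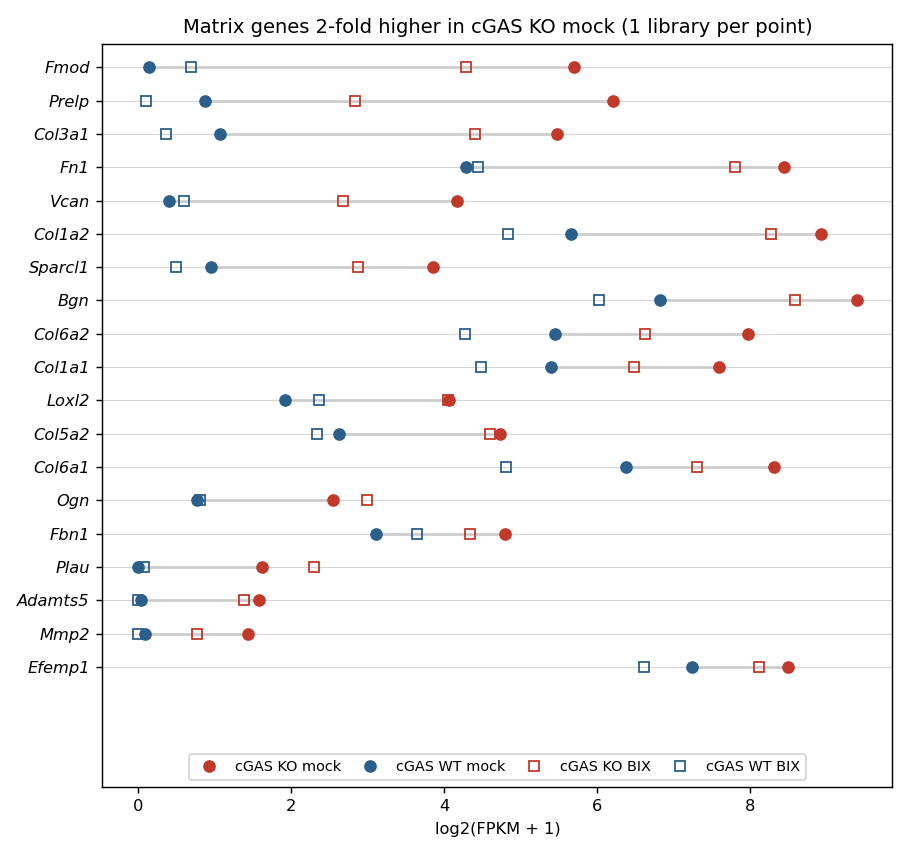
Levels of the collagen and other matrix genes that were 2-fold higher in cGAS KO mock, as log2(FPKM + 1) in each of the 4 L929 libraries; filled circles are mock, open squares BIX, red cGAS KO and blue cGAS WT, and grey bars join the mock values. For each of the 19 genes both red points lie right of both blue points.

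Besides Tgfbi, no counted gene of the TGF-beta and BMP pathway was called in the mock pair. The share of 1 higher among 27 (3.7%) was near the 4.7% of all genes, and the list median was 0.06. In the BIX pair 6 of the 27 were higher and 1 lower, against 5.37% and 4.79% of all genes, with a median of 0.28. Tgfb1, the ligand gene, was at 39.7 in KO mock and 62.7 in WT mock, and the receptor gene Tgfbr2 at 16.6 (KO mock) and 22.8 (WT mock). Contractile and SRF target genes, another set used to describe activated fibroblasts, had a median of 0.36, with 13 of 15 above 0. The actin gene Acta1 (7.02 in KO mock, 1.42 in WT mock) was the 1 called (6.67%, near the 4.7% of all genes).

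Receptors for matrix differed by subunit. Itgb1, the beta chain shared by most collagen, fibronectin and laminin integrins, was at 63.7 in KO mock and 6.25 in WT mock. The laminin-binding alpha chains were on the other side: Itga7 was at 2.30 in KO mock and 16.4 in WT mock, and Itga6 at 10.5 (KO mock) and 27.9 (WT mock). Over the 19 counted integrin and adhesion receptor genes 3 were higher and 3 lower (15.8% each way, against 4.7% and 3.13% of all genes), with a median of -0.01. Of the 19, 15 had an FPKM of at least 1 in both libraries. The difference of Itgb1 was also present in the BIX pair, where it was at 104 in the KO library and 19.9 in the WT library.

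Growth factor genes were split in the same way, with 5 higher (21.7%, against 4.7% of all genes) and 4 lower (17.4%, against 3.13% of all genes) of 23 counted. Only 19 of the 23 had an FPKM of at least 1 in both libraries, and Igf1 was among those counted only through KO mock. Igf1 was at 9.81 in KO mock and 0.713 in WT mock, and the IGF-binding proteins Igfbp4 (385 in KO mock, 138 in WT mock) and Igfbp6 (455 in KO mock, 155 in WT mock) were higher too. Pdgfa, a platelet-derived growth factor gene, was lower, at 34.8 in KO mock and 79.3 in WT mock. In the Wnt list 3 of 16 were higher (18.8%, against 4.7% of all genes) and 0 lower. Among the higher ones was Nkd1, a feedback inhibitor of the pathway, at 5.35 in KO mock and 0.0224 in WT mock. Nkd1 and Wisp2 (3.44 in KO mock, 0.110 in WT mock) were counted only through KO mock, so they could only come out higher. Of the 16, 14 had an FPKM of at least 1 in both libraries. Among those 14 only Fzd7 (7.75 in KO mock, 3.16 in WT mock) was called. In the Notch list 2 of 8 were lower (25%, against 3.13% of all genes), Lfng and Rfng, glycosyltransferases that modify Notch receptors. Lfng was at 9.12 in KO mock and 40.5 in WT mock, and Rfng at 13.4 (KO mock) and 29.3 (WT mock). Position-identity genes of the Hox clusters had a median of 0.25, with 2 of 28 higher (7.14%, near the 4.7% of all genes), Hoxb9 (37.2 in KO mock, 11.5 in WT mock) and Hoxb5 (8.07 in KO mock, 3.03 in WT mock). In the BIX pair 10 of the 28 were 2-fold higher, against 5.37% of all genes, and 0 lower, with a median of 0.65.

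The 15 genes with the highest differences among those reaching 5 FPKM included 5 of the matrix and collagen lists. The others had varied roles. Agmo, an enzyme that cleaves ether lipids, was at 25.6 in KO mock and 0.178 in WT mock, and the cytochrome P450 gene Cyp4b1 at 43.1 (KO mock) and 1.04 (WT mock). Lxn, which encodes the carboxypeptidase inhibitor latexin, was at 20.1 (KO mock) and 0.0966 (WT mock). Pdpn, a membrane glycoprotein of fibroblasts and lymphatic endothelium, was at 15.5 in KO mock and listed at 0 in WT mock. Scara5, a ferritin receptor, was at 12.0 (KO mock) and 0.0487 (WT mock), and the imprinted non-coding RNA Peg13 at 11.4 (KO mock) and 0.0775 (WT mock). All 15 were also 2-fold higher in the KO library of the BIX pair.

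Among the 15 lowest, Cd36, a fatty acid transporter and scavenger receptor, was at 1.49 in KO mock and 148 in WT mock. Gpd1, which makes glycerol 3-phosphate for lipid synthesis, was at 2.01 (KO mock) and 63.6 (WT mock), and Fabp4, a fatty acid-binding protein outside the 15, at 129 (KO mock) and 585 (WT mock). Both Cd36 and Fabp4 stand on the adipocyte list, where they were the 2 lower members of 11 counted (18.2%, against 3.13% of all genes). The other counted members were within the 2-fold limit on the log2(FPKM + 1) scale, although Cidec, a low gene, was at 0.458 in KO mock and 1.68 in WT mock. Pparg was at 43.2 in KO mock and 73.5 in WT mock and Lpl at 129.9 (KO mock) and 96.2 (WT mock), while Adipoq, Cebpa, Lep and Retn were listed at 0 in both. The list's summed FPKM was 598 in KO mock and 1249.7 in WT mock.

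Pnma5 and Pnma3 of the paraneoplastic antigen family were at 6.38 and 0.650 in KO mock and at 120.0 and 13.4 in WT mock. S1pr3, a sphingosine 1-phosphate receptor, was at 0.853 in KO mock and 17.6 in WT mock. The chemokine genes Ccl3 and Cxcl2 were listed at 0 and at 0.0960 in KO mock, against 11.1 and 9.75 in WT mock. AI662270 and the non-classical MHC gene H2-M10.1 were listed at 0 in KO mock and at 45.2 and 34.2 in WT mock, but H2-M10.1 has close relatives between which reads can be split wrongly. Of the 15 lowest, 14 were also 2-fold lower in the KO library of the BIX pair. The exception was Gm12238, at 22.9 in WT mock and listed at 0 in the other 3 libraries.

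Inflammatory genes outside these extremes were mixed. The NF-kappaB and inflammatory list had 3 higher and 3 lower of 28 counted (10.7% each way, against 4.7% and 3.13% of all genes) and a median of 0.01. Besides Cxcl2, Il6 was at 0.764 in KO mock and 4.85 in WT mock, and the neutrophil chemokine gene Cxcl1 at 83.0 (KO mock) and 207 (WT mock). Ptgs2, the inducible cyclooxygenase gene, was at 1.96 in KO mock and 0.0889 in WT mock. Cxcl2 and Il6 were counted only through WT mock and Ptgs2 only through KO mock, so the filter set their directions. Of the 28 genes, 23 had an FPKM of at least 1 in both libraries. Of 32 immediate early and MAPK feedback genes, 5 were lower (15.6%, against 3.13% of all genes) and 2 higher (6.25%, against 4.7%). Among the lower ones Ier3 was at 19.05 in KO mock and 64.9 in WT mock, and the ERK phosphatase gene Dusp4 at 8.93 (KO mock) and 26.6 (WT mock). C3, the central complement component, was the 1 called of 7 complement genes (14.3%, against 4.7% of all genes). It was at 21.999 in KO mock and 4.23 in WT mock.

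Most genes for endoplasmic reticulum chaperones were lower in KO mock. Of 28 counted unfolded protein response genes, all with an FPKM of at least 1 in both libraries, 10 were 2-fold lower (35.7%, against 3.13% of all genes) and 0 higher, 24 were below 0, and the median was -0.90. Hspa5, which encodes the main chaperone BiP, was at 752 in KO mock and 2566 in WT mock. Hsp90b1, the reticulum's HSP90, was at 771 (KO mock) and 1988 (WT mock). Sdf2l1, a cofactor of BiP, was at 58.4 (KO mock) and 219 (WT mock), Creld2 at 119 (KO mock) and 367 (WT mock), and the disulfide isomerase gene Pdia4, joined with Mir704 in the files, at 258 (KO mock) and 724 (WT mock). The highest member stood at 0.58, and Ddit3, the CHOP gene, was at 55.9 in KO mock and 59.5 in WT mock. Of the amino acid response genes under ATF4, 1 of 46 was higher and 1 lower (2.17% each way, against 4.7% and 3.13% of all genes), with a median of 0.18.

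In the BIX pair the chaperone difference was smaller, with 2 of the 28 lower, against 4.79% of all genes, and a median of -0.26. Hspa5 was at 565 in the KO library and 1243 in the WT library there. Sdf2l1 was at 31.1 in the KO library and 50.5 in the WT library. The difference between the 2 pairs was not tested.

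Genes of respiration and translation had small differences, mostly below 0. Of 81 counted genes of the respiratory chain and ATP synthase 69 were below 0, with a median of -0.39. Only 3 were 2-fold lower (3.7%, near the 3.13% of all genes) and 0 higher. Cycs, the cytochrome c gene, was among the 3, at 103 in KO mock and 212 in WT mock. Of 79 ribosomal protein genes 66 were below 0, with a median of -0.27, and 0 were called. Both lists hold highly expressed genes, whose median over all genes at a mean FPKM of 100 or more was -0.17, and the ribosomal median moved to -0.03 under quantile normalization. Glycolysis and hypoxia genes had 5 lower (13.9%, against 3.13% of all genes) and 2 higher (5.56%, against 4.7%) of 36. In the BIX pair 13 of the 36 were lower, against 4.79% of all genes, and 0 higher, with a median of -0.69. Egln3, an oxygen-sensing hydroxylase, was at 27.8 in KO mock and 106 in WT mock, and the hexokinase gene Hk2 at 6.53 (KO mock) and 17.1 (WT mock). Of 22 sterol genes 1 was called (4.55%, near the 4.7% of all genes), and 17 of the 22 were above 0. The called gene was Srebf2, the regulator of sterol synthesis, at 85.4 (KO mock) and 38.1 (WT mock).

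In the mock pair mitosis genes were close to level, and DNA replication genes were mostly slightly higher in KO mock. Of 50 mitosis genes 0 were called, and the median was 0.01. Of 46 DNA replication genes 38 were above 0, against 47.4% of all genes, with a median of 0.30. Of these 1 was called (2.17%, against 4.7% of all genes): Gins2, a subunit of the replicative helicase, at 48.9 in KO mock and 22.5 in WT mock. In the BIX pair 42 of the 46 replication genes and 42 of the 50 mitosis genes were above 0, against 51.3% of all genes. The medians there were 0.54 and 0.30. Among p53 targets 2 were higher and 2 lower of 30 (6.67% each way, against 4.7% and 3.13% of all genes). The cell cycle inhibitor gene Cdkn1a was at 36.3 in KO mock and 106 in WT mock, whereas the damage-response gene Gadd45a was at 43.5 (KO mock) and 14.002 (WT mock). Replication-dependent histone genes had 6 of 20 lower (30%, against 3.13% of all genes) and a median of -0.55, but only 8 had an FPKM of at least 1 in both libraries. In the BIX pair 1 of the 20 histone genes was lower, against 4.79% of all genes, and 2 higher, against 5.37%, with a median of -0.05. These RNAs mostly lack poly(A) tails and the libraries were poly(A)-selected, whose part in the result was not tested. In all, 26 of the 43 lists with at least 5 counted members had a median within 0.25 of 0, 9 were at 0.25 or above, and 8 at -0.25 or below.

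**Figure D3:**
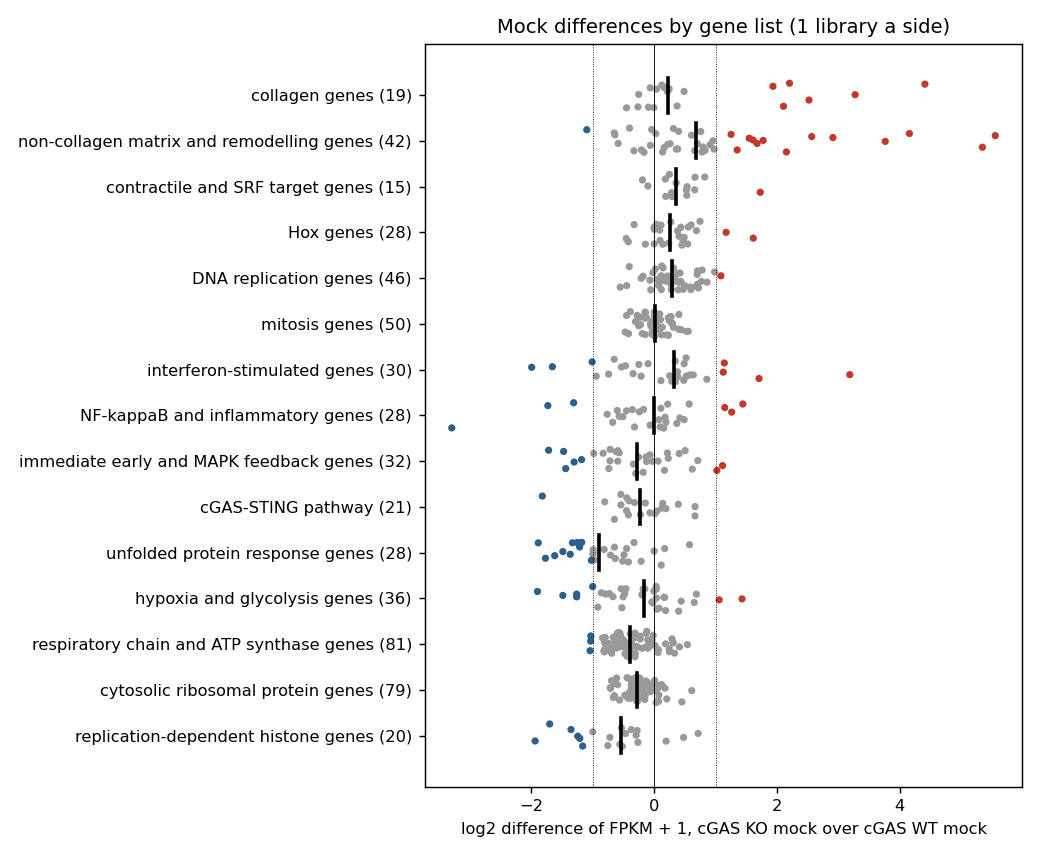
Log2 difference of FPKM + 1, cGAS KO mock over cGAS WT mock, for the counted members of 15 gene lists; each point is 1 gene, red where 2-fold higher, blue where 2-fold lower, and black bars are medians, with the number counted beside each name. Matrix lists carry red points out to 5.55, the unfolded protein response list is centred at -0.90, and the mitosis list at 0.01.

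The pair of BIX libraries, which shares no library with the mock pair, shows which differences between the lines recurred. There, the same 11015 genes were 2-fold apart in 10.2%, higher in 5.37% and lower in 4.79%. Mb21d1 was not lower in the library labelled cGAS KO BIX, so directions in that pair rest on the labels. Of the 518 genes higher in KO mock, 275 were also 2-fold higher with BIX, which is 53.1% of the mock list and 46.5% of the BIX list. Of the 345 lower, 195 were also 2-fold lower, or 56.5% of the mock list and 36.9% of the BIX list. Counting direction alone, 487 of the 518 (94%) were above 0 with BIX, against 51.3% of all genes, and 323 of the 345 (93.6%) were below 0, against 48.7%.

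The median difference of the 518 genes was 1.41 in the mock pair, which chose them, and 1.04 in the BIX pair. For the 345 it was -1.28 and -1.14. Across all 11015 genes the differences of the 2 pairs had a Pearson r of 0.702 and a Spearman rho of 0.620, where genes are not independent replicates. The labels do not say whether the libraries of a line came from separate cultures, and the cGAS genotype cannot be told apart from any other difference between the lines. Relative to KO mock, the number of reads was 0.740 in WT BIX and 1.00 in KO BIX.

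Col1a2 and Bgn were about as far apart with BIX as in mock. There, Col1a2 was at 309 in the KO library and 27.5 in the WT library, and Bgn at 382 in the KO library and 63.8 in the WT library. Fn1 was at 222 in the KO library and 20.7 in the WT library, a log2 difference of 3.36 with BIX and 4.16 in mock. Prelp was at 6.11 in KO BIX and 0.0690 in WT BIX, and at such low levels the pseudocount sets the size of the log2 difference. Ccl3 was at 0.845 in KO BIX and 84.8 in WT BIX, and Cxcl2 at 6.41 in KO BIX and 227 in WT BIX.

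**Figure D4:**
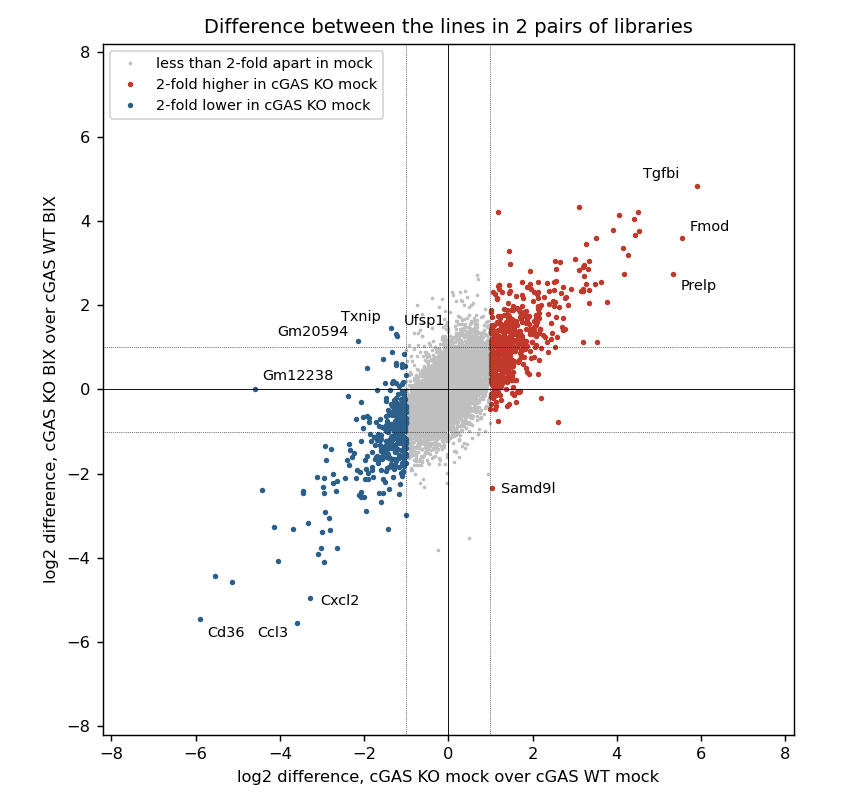
Log2 difference of FPKM + 1, cGAS KO over cGAS WT, in the BIX pair (vertical) against the mock pair (horizontal) for the 11015 counted genes; dotted lines mark 2-fold, red and blue the 518 and 345 genes called in mock. Most coloured genes lie in the lower left and upper right, and 5, Samd9l and Txnip among them, are 2-fold apart in opposite directions.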

How the data were processed

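Per the labels, poly(A)-selected RNA of L929 cells was made into TruSeq libraries and sequenced as paired ends. Per the submitters' processing notes, FastQC, cutadapt, TopHat2 and Cufflinks were used, with mm10 as the mouse build. The sources used here do not give versions, options, annotation or strandedness. The authors deposited 1 FPKM value per gene and library, used here as it stood. Antisense and overlapping genes may therefore share reads.

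Of 24138 entries, 289 repeated a symbol, of which only the entry with the largest mean was used. Another 1122 short non-coding RNA genes were left out by name, and 313 merged loci were kept as 1 gene each. A pseudocount of 1 was added. For relative reads, the most frequent ratio of low values (under 0.3 FPKM) between libraries was taken. Between 19.2% and 21.6% of them fell in 1 window of 1%. Python 3.11.15, pandas 2.3.3 and numpy 2.4.6 were used, and the counting was tested on simulated data.

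Named genes are the 15 highest and 15 lowest differences among genes reaching 5 FPKM, the 10 per direction with the largest smaller-of-both differences in the mock and BIX pairs, up to 4 members per list with the largest difference, and the cGAS-STING list. Further list members, such as Hsp90b1 or Col4a1, were named after their values were seen, and some items are not reported here. The members and the 53 lists were chosen with earlier results of these data known. No p was computed, as each side is 1 library. Alternatives covered the pseudocount, the filter, scaling, the fold limit and the treatment of repeated, merged and short non-coding entries.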

Additional observations from a re-analysis of the deposited data

Results flagged for a closer look

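Each value here is the mock difference minus the BIX difference, in log2 of FPKM + 1, for a gene or list whose KO library was above its WT library in 1 pair and below it in the other. With 1 library a group, these differences between the pairs were not tested. Of the 863 genes 2-fold apart in mock, 5 were 2-fold apart the other way with BIX. Samd9l, an interferon-stimulated gene outside the list used, had a value of 3.37, from 5.00 FPKM in KO mock and 1.93 in WT mock, and from 2.59 in KO BIX and 17.1 in WT BIX. Txnip, which encodes a thioredoxin-binding protein that responds to glucose, had a value of -2.81, with 11.6 in KO mock and 31.3 in WT mock, and 180.3 in KO BIX and 65.3 in WT BIX. Ufsp1, a UFM1-specific protease gene, had -2.56, with 3.82 in KO mock and 10.4 in WT mock, and 28.6 in KO BIX and 10.8 in WT BIX. Gm20594 had -3.29, with a listed 0 in KO mock and 3.40 in WT mock, and 9.49 in KO BIX and 3.73 in WT BIX. Hist1h4d, a replication-dependent histone gene at 0.441 in KO mock and 2.33 in WT mock, had -2.48, with 11.8 in KO BIX and 4.31 in WT BIX.

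Mb21d1 itself had a value of -1.08, being lower in KO mock and higher in KO BIX. Among lists, the median of the interferon-stimulated genes differed by 0.65 (0.32 in mock, -0.34 with BIX). With BIX 7 of the 30 were lower in the KO library, against 4.79% of all genes, and 1 higher, against 5.37%. The median of the ATF4 targets differed by 0.42 (0.18 in mock, -0.25 with BIX).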

How the results depend on the processing

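Each difference rests on 1 library a side, and read counts are unknown, so no error can be given. No paired analysis was possible because each group is 1 library and the result comes from no test. Of 2409 gene values under 11 alternatives, no called difference changed sign. A change of pseudocount, filter or fold limit cannot turn a sign, and values no longer called were counted as kept. This count therefore says little about how firm the differences are. Counted higher and lower genes were 518 and 345. Higher were 309 at an FPKM of at least 5 and 1247 at a 1.5-fold limit. Lower were 518 with a pseudocount of 0.1 and 1174 at 1.5-fold. The higher share of calls was 60%, and 51.5% at 1.5-fold. At 1.5-fold, 23 matrix genes were higher (13 at 2-fold) and 18 unfolded protein response genes lower (10 at 2-fold). The respiratory median was -0.28 under quantile normalization (-0.39 without).

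Of 472 list medians, 435 stayed within the limits set, 35 moved and 2 turned round. Both did so at an FPKM of at least 5: growth factors (0.080, against -0.19) and bone and cartilage markers (-0.48, against 0.80), with fewer genes counted. For the BIX pair, where the alternatives were chosen after seeing the data, 275 genes were higher and 195 lower in both pairs. These became 467 and 302 with a pseudocount of 0.1, and 745 and 687 at 1.5-fold. At an FPKM of at least 5 they were 191 and 150.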

Other observations

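Some gene families were picked out after their values were seen, so their counts describe these libraries and support nothing further. The inflammatory caspases were higher in KO mock in 3 of 3 genes. Casp1, which activates interleukin-1 beta, was at 64.6 FPKM in KO mock and 16.3 in WT mock, and with BIX at 18.9 in the KO library and 5.75 in the WT library. Casp4, a sensor of cytosolic lipopolysaccharide, was at 74.8 in KO mock and 33.0 in WT mock, and Casp12 at 32.6 (KO mock) and 15.6 (WT mock). Casp8, an initiator of apoptosis, was at 12.6 (KO mock) and 24.2 (WT mock).

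The architectural chromatin proteins Hmga1 and Hmga2 were both lower, Hmga1 at 182 in KO mock and 492 in WT mock and Hmga2 at 90.5 (KO mock) and 184 (WT mock). With BIX they were at 251 and 98.5 in the KO library, against 734 and 230.2 in the WT library. Of the Ly6 surface proteins, 3 of 5 counted were higher, with Ly6c1 at 190.3 in KO mock and 43.8 in WT mock. In the Serpinb9 family of granzyme B inhibitor-like genes, Serpinb9f was at 0.252 in KO mock and 3.82 in WT mock and Serpinb9e at 3.30 (KO mock) and 12.4 (WT mock), while Serpinb9b was at 14.8 (KO mock) and 3.63 (WT mock). These are close paralogs between which reads can be split wrongly. Crabp2, a retinoic acid-binding protein gene, was at 234 in KO mock and 44.1 in WT mock, and S100a16 at 88.3 (KO mock) and 10.09 (WT mock).

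Several genes were listed at 0 on 1 side and at 5 FPKM or more on the other. There were 9 listed at 0 in WT mock, of which 7 were also at 0 in WT BIX: these 7 include Pdpn, Zfp467, Gstk1, Eid2 and Fam13c. There were 8 listed at 0 in KO mock, of which 4 were also at 0 in KO BIX.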
